A study of Mus musculus with 12 samples.

Results

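The replication-dependent histone genes were described by RNA sequencing of mouse myoblasts and striated muscle that lack the Lamin B receptor or lamin A/C. Members were taken by name, as every entry of the expression table whose symbol begins with Hist1h, Hist2h, Hist3h or Hist4h. This gave 68 entries among 22552. They comprise 6 linker histone H1 entries, 18 of H2A, 19 of H2B, 12 of H3 and 13 of H4. By gene cluster, 54 belong to Hist1, 10 to Hist2, 3 to Hist3 and 1 to Hist4. Each of 3 entries carries 2 symbols, and 2 entries have names of pseudogenes.

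The animals were C57Bl/6 mice, and 7 groups were measured. In striated muscle these were LBR_KO, LMNA_KO and wild type, with 2 samples each. In myoblasts they were LBR_KO (2 samples) with wild type of the same litter (1 sample), and LMNA_KO (2 samples) with wild type of its own litter (1 sample). Lbr encodes an inner nuclear membrane protein that binds B-type lamins and chromatin, and Lmna encodes the A-type lamins of the nuclear lamina. Homozygous knockouts and wild types came from matings of heterozygous animals, and 1 wild type was processed with each knockout litter. The labels do not give the deleted part of either gene, the age of the animals, or how the myoblasts were obtained. The RNA of the 6 muscle samples was prepared with the NUGEN complete kit and that of the 6 myoblast samples with the NUGEN ovation kit, so kit and tissue cannot be told apart. The authors deposited 1 value per gene and group in FPKM, the fragment count scaled to transcript length and library size. With no value for a single replicate there is no spread within a group and no test. A gene was called higher or lower when log2(FPKM + 1) differed by at least 1, that is 2-fold, among genes that averaged at least 1 FPKM in the columns compared and were not listed at 0 in any of them. The scale with 1 added understates differences of low genes. Of the 68 members, 64 averaged at least 1 FPKM over the 7 columns, and 5 were listed at 0 in at least 1 column.

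The targeted genes were lower in their knockouts, though Lbr in LBR_KO myoblasts did not reach the 2-fold call (log2 difference -0.97). Lbr had 7.71 FPKM in LBR_KO myoblasts against 16.1 in their wild type, and 1.87 in LBR_KO muscle against 11.8 in wild-type muscle. Lmna had 18.5 FPKM in LMNA_KO myoblasts against 147 in their wild type, and 22.6 in LMNA_KO muscle against 59.5 in wild-type muscle. The muscle columns carried the muscle genes Ckm (4488 to 5120 FPKM) and Myh4 (9783 to 13015 FPKM). The myogenic markers had 16.4 to 18.1 FPKM (Myod1), 3.21 to 3.76 (Myf5) and 1.28 to 2.10 (Pax7) in muscle, and only 2.09 to 5.51, 0.191 to 0.441 and 0.152 to 0.273 FPKM in the 4 columns labelled myoblast, so Myf5 and Pax7 were near absent there. The summed level of 10 macrophage markers was 91.1 to 127.8 FPKM in muscle and 398 to 1452 FPKM in myoblasts, with none of the 10 at 0 in any column. In such bulk samples, fewer cells of a type and less RNA per cell cannot be told apart.

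Replication-dependent histone genes supply the core histones H2A, H2B, H3 and H4, which form the nucleosome, and the linker histones H1, which bind between nucleosomes. Their transcription and mRNA stability are raised in S phase, when new DNA has to be packaged. Their mRNAs generally end in a conserved stem-loop in place of a poly(A) tail, and the stem-loop is bound by the protein Slbp. Some of these genes also make polyadenylated mRNAs from a downstream signal, above all in cells that have left the cell cycle. Replacement histones such as H3.3, encoded by H3f3a and H3f3b, are made throughout the cell cycle as polyadenylated mRNAs.

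The stem-loop was sought in the transcripts of the GENCODE M21 annotation of GRCm38, in which 67 of 68 member symbols had a transcript. It was found in 43. Several of the others had short annotated transcripts, such as Hist1h2bl (381 bases), Hist1h3h (411) and Hist1h4k (312). A stem-loop beyond the annotated end could not be found, so a gene without a match need not lack it. The sequences below are those of the members that the results turn on, with the 16 bases of the stem-loop in capitals and 7 bases on either side.
Hist1h1c: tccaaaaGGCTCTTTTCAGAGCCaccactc
Hist2h2aa1: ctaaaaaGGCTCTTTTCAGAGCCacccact
Hist1h2bm: acacaaaGGCTCTTTTCAGAGCCactaagc
Hist3h2ba: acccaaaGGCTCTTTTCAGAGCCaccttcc
Hist1h3c: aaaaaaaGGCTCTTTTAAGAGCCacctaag
Hist1h4d: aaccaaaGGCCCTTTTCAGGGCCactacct
Hist1h4h: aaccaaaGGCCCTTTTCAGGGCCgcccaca
Hist2h4: ccctaacGGCCCTTTTTAGGGCCaaccaca

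The form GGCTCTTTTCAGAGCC was the most frequent, with 25 members from H1, H2A, H2B and H3. All 10 H4 transcripts with a stem-loop had GGCCC at its start and GGGCC at its end. The annotated transcripts of Hist1h4d and Hist1h4h share the same 16 bases, and these genes differed in opposite directions between tissues, as given further below. In 21 members the annotated transcript ran 100 or more bases beyond the stem-loop, and in 17 it had AATAAA or ATTAAA, the signals of polyadenylation, within its last 40 bases. These are features of the annotation and were not measured in these samples.

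Promoters of 61 members could be read from RefSeq (GRCm38.p6), and 3 motifs were searched on both strands in the 250 bases before the start of each gene. Members were counted by gene, with a match in any promoter listed for the gene, and the background by promoter, so the 2 shares differ in unit. CCAAT, the letters read by the factor NF-Y, was present in 82.0% of members, against 33.8% of all 32851 promoters in the table. It was present in 6 of 6 H1, 17 of 17 H2A, 16 of 16 H2B, 8 of 10 H3 and 3 of 12 H4 genes. TATAAA was in 47.5% of members and 12.4% of all promoters. The octamer ATTTGCAT, read by Oct1, was in 7 of 17 H2A and 7 of 16 H2B genes and in none of the H1, H3 and H4 genes, against 1.6% of all promoters. Matches of different motifs can overlap at their ends, since CCAAT ends and ATTTGCAT starts with AT. The 100 bases before the start are shown for an H4, an H1 and an H2B gene called between wild-type muscle and wild-type myoblasts. Matches are in capitals (ATTGG is CCAAT on the other strand).
Hist1h4d, chr13:23581468-23581567, plus strand: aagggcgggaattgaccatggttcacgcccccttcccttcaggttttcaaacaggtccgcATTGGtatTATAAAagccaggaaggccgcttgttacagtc
Hist1h1c, chr13:23738707-23738806, plus strand: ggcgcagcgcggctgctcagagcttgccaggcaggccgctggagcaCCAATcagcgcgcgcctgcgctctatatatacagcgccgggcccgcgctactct
Hist1h2bm, chr13:21721944-21722043, plus strand: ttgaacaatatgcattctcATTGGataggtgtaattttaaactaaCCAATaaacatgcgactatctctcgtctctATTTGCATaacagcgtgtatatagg

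Histone genes are short and near-identical, which bears on every value below. The longest annotated transcript of a member had a median of 534 bases, and 42 were under 700 bases. In 33 members, 50% or more of all stretches of 50 bases also occurred in another annotated gene, in 5 all of them did, and in 4 none did. H1 genes were the most distinct, with a median of 1.13% of stretches shared, and H2A genes the least, with 73.0%. Counts of such genes depend on how fragments matching several copies were assigned, and the sources used here do not state this or the strand. Hist1h2bq and Hist1h2br had the same value in every column.

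**Figure D1:**
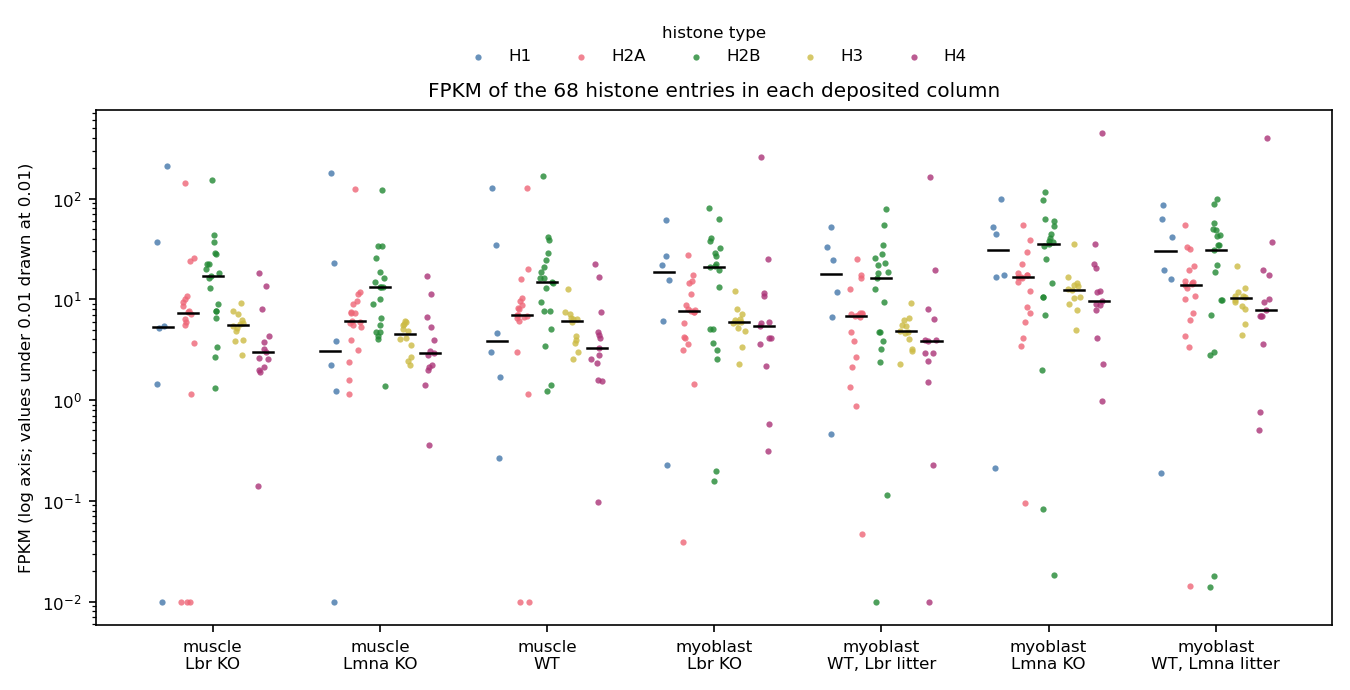
FPKM of each of the 68 histone entries in the 7 group columns on a log axis, muscle left and myoblasts right, coloured by histone type; each point is 1 deposited value, black lines are medians, and values under 0.01 are drawn at 0.01. The highest point of each myoblast column is an H4 entry, Hist1h4d with 165 to 445 FPKM, and in muscle the highest points are Hist1h1c, Hist1h2bc and Hist2h2aa1,Hist2h2aa2.

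The summed level of all members was 1129, 906.5 and 1021 FPKM in LBR_KO, LMNA_KO and wild-type muscle. It was 1127 FPKM in LBR_KO myoblasts and 905.5 in their wild type, and 1973 in LMNA_KO myoblasts and 1773 in their wild type. As a share of all FPKM in a column this was 0.227%, 0.194% and 0.208% in muscle, 0.314% and 0.262% in the Lbr litter, and 0.483% and 0.458% in the Lmna litter. By this sum the 2 litters of myoblasts stood further apart than either knockout did from its own wild type. H2B gave the highest sum of the 5 types in all 7 columns, at 356 to 688 FPKM. H4 was among the 2 lowest types in muscle, with 61.3 to 74.2 FPKM, and second to H2B in each myoblast column, with 221 to 590 FPKM.

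**Figure D2:**
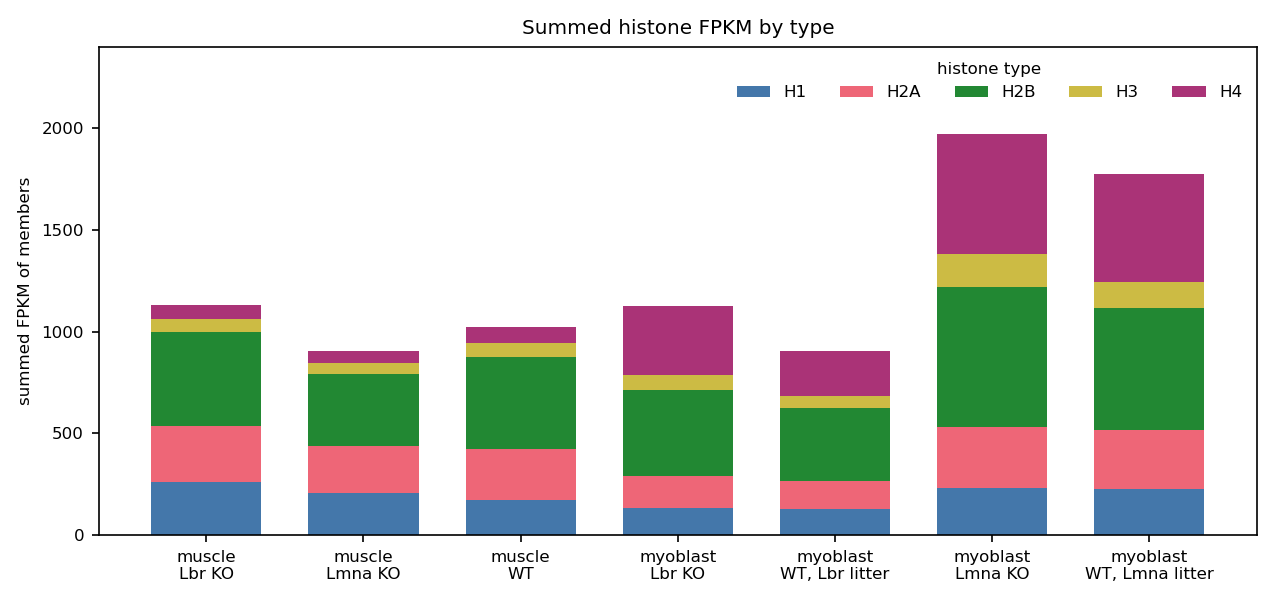
Summed FPKM of the members, stacked by histone type, in the 7 group columns, muscle left and myoblasts right; bars start at 0 and have no error because each group has 1 deposited value. The H4 part is 61.3 to 74.2 FPKM in muscle and 221 to 590 FPKM in myoblasts, and both Lbr-litter bars are lower than both Lmna-litter bars.

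In LBR_KO myoblasts most histone genes were slightly above the wild type of the same litter, by much less than the 2-fold call. Of 62 members compared, 56 were higher (43 after quantile normalization), where 6986 of all 11472 genes compared were higher. The median log2 difference of the members was 0.24, beside 0.05 over all genes. A single member was called, Hist1h2ao,Hist1h2ap, and 2.63% of all genes compared were called in either direction. H4 genes differed most, with all 11 higher and a median of 0.43. Hist1h4d, the H4 gene of highest mean level, had 259 FPKM in LBR_KO myoblasts and 165 in their wild type. Hist1h1e, an H1 gene named after its values were seen, went the other way, with 21.8 FPKM against 32.8. Among genes outside the module, all 10 macrophage markers rose in LBR_KO myoblasts, by log2 values of 1.31 to 1.995, while 0 of 40 DNA replication genes (median 0.05), 0 of 20 mitotic genes (median -0.04) and 0 of 14 genes of histone mRNA processing (median 0.01) were called. Muscle genes moved as well: the intermediate filament Des had 85.2 FPKM in LBR_KO myoblasts against 23.3 in their wild type (log2 difference 1.83), the actin Acta1 62.5 against 25.5 (1.26), Myod1 5.51 against 2.46 (0.91), and the troponin Tnnt3 and the myosin Myh1 rose by 1.73 and 1.23. The part of the macrophage and muscle signals in the histone values was not tested.

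LMNA_KO myoblasts gave a similar small shift. Of 63 members compared, 53 were above the wild type of the litter, where 6642 of all 11411 genes compared were. The median log2 difference of the members was 0.17, beside 0.04 over all genes. Calls were made for 2 members, Hist2h2bb and Hist1h4m,Hist1h4n, against 1.23% of all genes. All 12 H3 genes were higher, with a median of 0.23. The H3 gene Hist2h3b had 35.8 FPKM in LMNA_KO myoblasts and 21.3 in their wild type. All 20 mitotic genes were lower in LMNA_KO myoblasts, with a median of -0.18 and no call, and the 40 replication genes had a median of 0.01. The macrophage markers had a median of -0.38 and no call. The muscle genes were lower, with Des at 18.7 FPKM in LMNA_KO myoblasts against 32.9 in their wild type (log2 difference -0.78), Acta1 at 32.5 against 52.6 (-0.68), Myod1 at 2.09 against 5.35 (-1.04) and Myh1 at 0.598 against 6.47 (-2.22), while Tnnt3 was listed at 0 against 20.8. Their part in the histone values was not tested.

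Hist2h2bb, an H2B gene, showed the largest difference of any member between a knockout and its own litter in myoblasts. It had 14.5 FPKM in LMNA_KO myoblasts against 2.83 in their wild type, a log2 difference of 2.02. The other litter had 3.14 FPKM in LBR_KO myoblasts and 3.21 in their wild type. In muscle it had 22.4, 13.3 and 21.1 FPKM in LBR_KO, LMNA_KO and wild type. The LMNA_KO myoblast column was thus the only myoblast column near the muscle levels. All stretches of 50 bases of its annotated transcript also occur in another annotated gene, so which locus gave these fragments cannot be told from the table. Its promoter holds both the CCAAT and the octamer letters.
Hist2h2bb, chr3:96269600-96269699, plus strand: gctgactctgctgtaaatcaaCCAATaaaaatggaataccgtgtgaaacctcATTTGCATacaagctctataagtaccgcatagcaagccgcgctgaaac

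The other calls in myoblasts lay in entries whose symbol is listed on more than 1 line of the table. The Hist1h2ao,Hist1h2ap entry, encoding H2A, had 4.15 FPKM in LBR_KO myoblasts and 0.869 in their wild type, a log2 difference of 1.46. The separate Hist1h2ap entry had 14.7 and 16.3 FPKM in those columns. Summed, the 2 entries had 18.8 FPKM in LBR_KO myoblasts and 17.2 in their wild type, a log2 difference of 0.12. The Hist1h4m,Hist1h4n entry, encoding H4, had 2.27 FPKM in LMNA_KO myoblasts and 0.508 in their wild type, a log2 difference of 1.12. With the Hist1h4n entry added, the values were 24.9 and 19.9 FPKM, a log2 difference of 0.31. Both calls were lost when entries that share a symbol were summed.

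**Figure D3:**
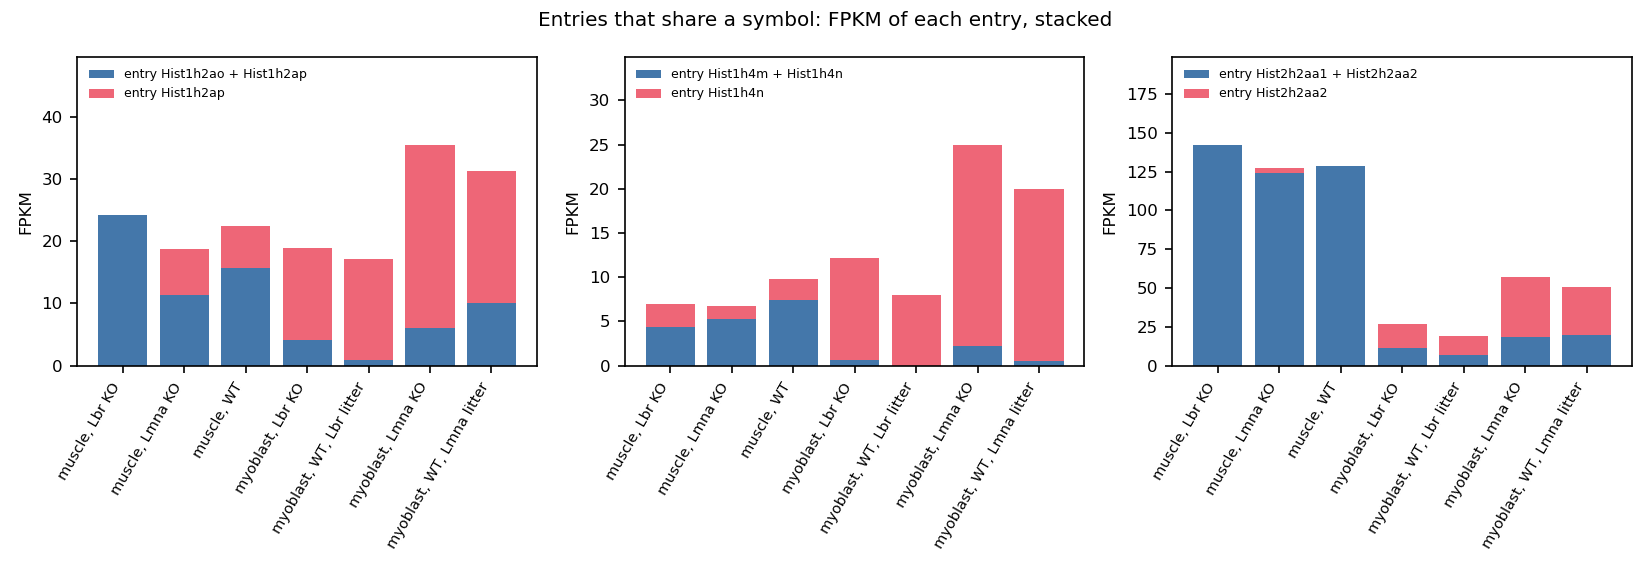
FPKM of the 3 pairs of entries that share a symbol (Hist1h2ao,Hist1h2ap with Hist1h2ap; Hist1h4m,Hist1h4n with Hist1h4n; Hist2h2aa1,Hist2h2aa2 with Hist2h2aa2) in the 7 group columns, stacked to their sum. The split within a pair shifts between columns, as for Hist1h2ap with 0.000825 FPKM in LBR_KO muscle and 6.63 in wild-type muscle, while the sums of the H2A pair are 24.2 and 22.4 FPKM.

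The clearest pattern of the histone genes in myoblasts ran between the litters and not between genotypes. In wild-type myoblasts, 19 of 62 members were at least 2-fold lower in the Lbr litter than in the Lmna litter and none was higher, while 2.03% of all genes compared were that much lower. The median log2 difference of the members was -0.91, beside -0.07 over all genes. Of the members 61 of 62 were below 0, where 6540 of all 11402 genes compared were. A comparison of the knockouts, LBR_KO over LMNA_KO, was added after the data were seen. There 12 of 63 members were lower and none higher, against 1.35% of all genes lower, with a median of -0.89. Among other genes with short transcripts, larger shares were called lower than among all genes, as given further below. Both Lbr-litter columns were below both Lmna-litter columns for 59 of 62 members, where 39.3% of all genes had that order, and above both for 0 members, where 29.4% of all genes were above. The exceptions, named after their values were seen, were the H2B genes Hist1h2be, Hist2h2bb and Hist2h2be. The lower side held for 61 of 62 members after quantile normalization and for 62 of 63 with each column scaled to the same summed FPKM.

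All histone types took part. The median log2 difference of the Lbr litter over the Lmna litter in wild types was -0.74 for H1, -0.93 for H2A, -0.82 for H2B, -0.86 for H3 and -1.16 for H4. In that order, 1 of 5, 6 of 17, 1 of 17, 4 of 12 and 7 of 11 were called lower, against 2.03% of all genes. Between the knockouts the counts were 2 of 5, 4 of 17, 1 of 17, 3 of 12 and 2 of 12, against 1.35%. Hist1h4d had 259 and 165 FPKM in LBR_KO and wild-type myoblasts of the Lbr litter, against 445 and 404 FPKM in LMNA_KO and wild-type myoblasts of the Lmna litter. Hist1h1c had 27.0 and 24.3 FPKM in the Lbr litter, against 44.1 and 41.3 in the Lmna litter. Hist1h2bc, the H2B gene of highest mean level, had 40.7 and 34.5 FPKM against 62.4 and 57.9. In each of these genes the 2 litters did not overlap.

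In both the wild-type pair and the knockout pair, 6 members were at least 2-fold lower in the Lbr litter, against 0.341% of all genes. Named after their values were seen, they were Hist1h1d of the H1 type, Hist1h4b of the H4 type, Hist2h2aa2 and Hist2h2ab of the H2A type, and Hist2h3b and Hist2h3c2-ps of the H3 type. Hist1h1d had 6.08 and 6.74 FPKM in LBR_KO and wild-type myoblasts of the Lbr litter, against 16.8 and 15.96 in the Lmna litter. Among the 33 other genes lower in both pairs were Rmrp and Rpph1, named after their values were seen, the RNA components of RNase MRP and RNase P. Rmrp had 8.27 and 5.24 FPKM in the Lbr litter, against 28.8 and 20.3 in the Lmna litter.

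**Figure D4:**
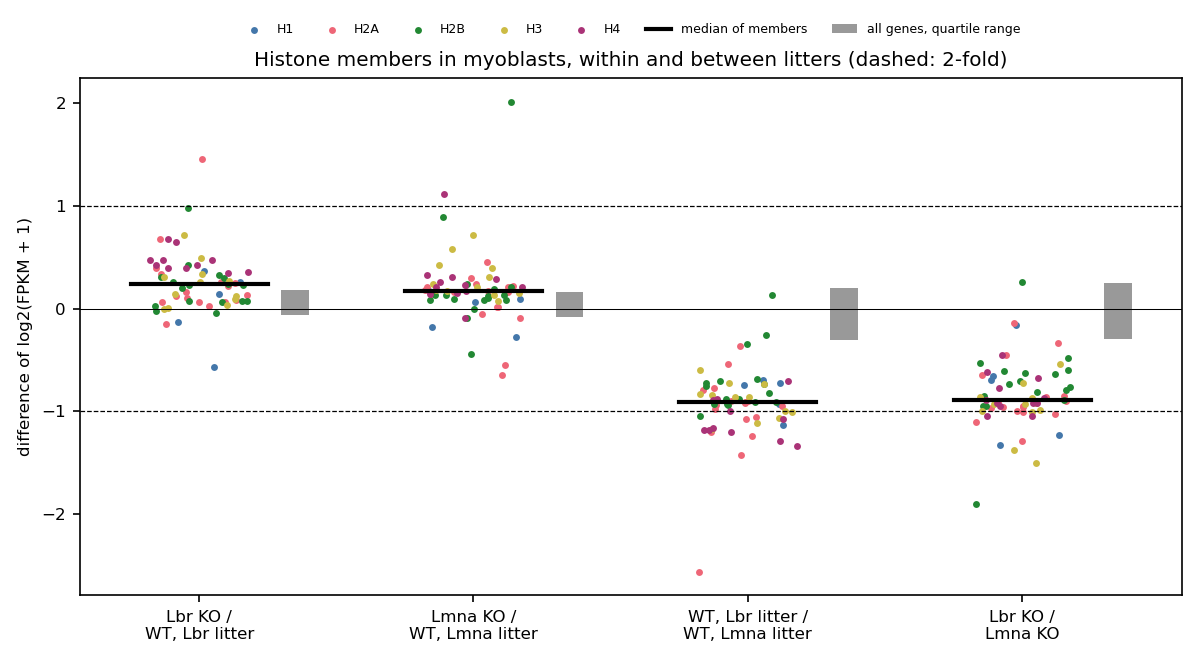
Difference of log2(FPKM + 1) for each histone member compared in myoblasts, for LBR_KO and LMNA_KO over their own wild types and for the Lbr litter over the Lmna litter in wild types and in knockouts; colours give the type, black bars the member medians, grey boxes the middle quartiles of all genes and dashed lines 2-fold. The medians within litters are 0.24 and 0.17, and those between litters are -0.91 and -0.89.

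The genes that work with histones differed less at the median. The 40 DNA replication genes had a median log2 difference of -0.19 in wild types and -0.10 in knockouts, with no call in either pair. Pcna, the sliding clamp of DNA polymerases, had 96.1 and 103.6 FPKM in the Lbr litter, against 113.5 and 107.5 in the Lmna litter. Slbp, which binds the stem-loop, had 23.1 and 21.4 FPKM against 24.7 and 22.4. Of 15 genes of histone mRNA processing, 1 was called in wild types, Casp8ap2, which is needed for histone gene expression and was higher in the Lbr litter with 21.5 and 20.9 FPKM against 10.3 and 9.83. Npat, the coactivator of histone gene transcription, was not called (log2 difference 0.74) and is named after its values were seen. It had 13.4 and 13.4 FPKM in the Lbr litter, against 7.60 and 7.66. The 20 chaperone genes had a median of 0.03 and 1 call, Atrx, which was higher in the Lbr litter with 39.8 and 37.2 FPKM against 15.5 and 17.7. The 12 replication-independent histone genes had a median of -0.24 and 1 call, H2afx, with 65.5 and 52.5 FPKM in the Lbr litter against 109.7 and 109.8. H2afx makes both a stem-loop mRNA and a polyadenylated one.

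Other measures moved with the litters. Among other genes with a single annotated transcript, the median log2 difference of the Lbr litter over the Lmna litter in wild types was -0.37 for 97 genes under 700 bases, -0.29 for 286 genes of 700 to under 2000 bases, -0.05 for 318 genes of 2000 to under 4000 bases and 0.12 for 203 genes of 4000 bases or more. Calls also varied with length. Of other single-transcript genes under 700 bases, 7.22% were called lower in wild types and 11.9% between the knockouts. For 700 to under 2000 bases these shares were 9.09% and 5.52%. Members with under 50% of shared stretches had a median of -0.88 in wild types (29 members), and those with more had -0.92 (30 members). The shares called lower in these groups were 24.1% and 30.0% in wild types, and 10.3% and 23.3% between the knockouts. The macrophage markers summed to 1186 and 398 FPKM in LBR_KO and wild-type myoblasts of the Lbr litter, against 1177 and 1452 in the Lmna litter. They were called lower in the Lbr litter for 9 of 10 genes in wild types, and had a median of 0.27 with no call between the knockouts. The 20 mitotic genes had a median of -0.09 in wild types, with 8 above and 12 below 0 and 1 call, and 0.04 in knockouts with 3 calls, all higher. Mki67, a marker of cycling cells, stood apart from that median together with Cenpe and Cenpf, and these were the 3 knockout calls. Mki67 had 122 and 113 FPKM in the Lbr litter against 52.5 and 59.7. Cenpe, the call in wild types, had 46.9 and 48.0 against 18.1 and 22.0, and Cenpf 19.8 and 18.8 against 7.16 and 9.40. The part of transcript length, macrophage content, cycling cells and the processing of each litter in the histone difference was not tested.

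In muscle, knockouts and wild type were close for most histone genes. In LBR_KO muscle 38 of 64 members were above wild type, as were 7996 of all 12000 genes compared. The member median of 0.06 became -0.04 when all genes were centred on their median of 0.10. The single call was Hist1h2ap, against 1.59% of all genes, with 0.000825 FPKM in LBR_KO muscle and 6.63 in wild type. Its 2 entries together had 24.2 and 22.4 FPKM. Hist1h1c, the most abundant H1 gene, had 212 FPKM in LBR_KO muscle and 127 in wild type, short of a call with a log2 difference of 0.74. Lymphocyte markers rose in LBR_KO muscle, with 6 of 9 called and a sum of 59.4 FPKM against 13.9 in wild type. None of the 10 lymphocyte markers was at 0 in a muscle column, and the part of these cells in the histone values was not tested.

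In LMNA_KO muscle the members leaned lower. Of 64 compared, 48 were below wild type, where 4154 of all 12025 genes compared were. The member median was -0.26, beside 0.13 over all genes. Calls were made for 3 members, against 2.74% of all genes. Hist3h2ba, an H2B gene, rose to 4.003 FPKM in LMNA_KO muscle, against 1.42 in wild type, with a log2 difference of 1.05 that was 0.92, below the call, after centring on the all-gene median. LBR_KO muscle had 2.66 FPKM. Hist1h3c, an H3 gene, fell to 5.10 FPKM, against 12.8 in wild type (log2 difference -1.18), with 9.21 in LBR_KO muscle. Hist2h3c2-ps, an H3 pseudogene by its name, fell to 2.47 FPKM, against 6.36 (log2 difference -1.08), with 3.94 in LBR_KO muscle. These calls rest on few fragments. On a transcript of 500 bases, 1 FPKM was estimated at 1.62 fragments in LMNA_KO muscle and 2.04 in wild-type muscle. Mitotic genes leaned the same way, with 19 of 19 below wild type, a median of -0.58 and 1 call, the DNA topoisomerase Top2a (log2 difference -1.08). Of 35 replication genes 1 was called, Gins1, which acts in the replicative helicase (-1.004), with a median of -0.19. Lymphocyte markers summed to 35.4 FPKM in LMNA_KO muscle, and their part was not tested. Both muscle knockouts were compared with the same wild-type column.

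Between wild-type muscle and wild-type myoblasts a smaller share of histone genes than of all genes was called lower, a difference that was not tested. The share called higher was near that of all genes. Of 61 members compared, 8 were higher in muscle and 16 lower (39.3% called in all, 26.2% lower), where 16.9% of all genes were higher and 37.2% lower. The median of the members was -0.30 and that of all genes -0.58. The direction of the family's median depended on scaling: it was 0.28 with 10 higher and 8 lower when centred on all genes, 0.20 with 10 and 10 after quantile normalization, and -0.71 with 7 and 20 with columns scaled to the same summed FPKM. The all-gene medians were then 0, -0.20 and -0.90. The share of all genes called was not counted under these scalings, so the member counts cannot be set against it.

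Hist1h4d showed the largest difference of any member. It had 2.14, 3.07 and 4.70 FPKM in LBR_KO, LMNA_KO and wild-type muscle, against 259 and 165 FPKM in LBR_KO myoblasts and their wild type and 445 and 404 FPKM in LMNA_KO myoblasts and their wild type. Myoblast values keep this order in the sentences that follow. The tissues did not overlap, and the log2 difference between wild types was -5.51. The gene made up 74.7% to 76.4% of the summed H4 level in myoblasts and 3.28% to 6.34% in muscle. Only 10.2% of the stretches of its transcript are shared with another gene. Without it the H4 sum was 63.2, 58.2 and 69.5 FPKM in muscle, against 80.1, 56.0, 144.6 and 127.4 FPKM in myoblasts. Other members lower in muscle, named by size after their values were seen, were the H1 genes Hist1h1b (-4.08) and Hist1h1a (-2.58), and the H2B genes Hist1h2bm (-2.36) and Hist1h2bl (-2.13). From the Hist2 cluster, Hist2h4 of the H4 type had 2.58, 2.15 and 2.53 FPKM in muscle, against 25.4, 19.8, 35.0 and 37.4 in myoblasts.

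The members higher in muscle came from each type. Hist1h1c had 212, 178 and 127 FPKM in LBR_KO, LMNA_KO and wild-type muscle, against 27.0, 24.3, 44.1 and 41.3 FPKM in myoblasts, and a log2 difference between wild types of 1.96. It gave 74.2% to 85.4% of the summed H1 level in muscle and 18.2% to 20.3% in myoblasts. Hist1h2bc had 154, 122 and 167 FPKM in muscle, against 40.7, 34.5, 62.4 and 57.9 in myoblasts (1.88). The H2A genes Hist2h2aa1 and Hist2h2aa2, whose 2 entries are summed here, had 142, 127 and 129 FPKM in muscle, against 26.6, 19.3, 56.9 and 50.8 in myoblasts. The sums differed by a log2 value of 2.0 between wild types, against 3.37 for the Hist2h2aa1,Hist2h2aa2 entry alone, since the Hist2h2aa2 entry was listed at 0 in wild-type muscle. Hist2h2bb, at 2.46, was then the highest member. The Hist1h2ao,Hist1h2ap entry, 1 of the 8 higher members, had 1.88 alone and -0.05 when summed with Hist1h2ap. With all such entries summed, 7 of 60 members were higher and 14 lower. Hist1h4h, an H4 gene named after its values were seen, had 18.1, 17.2 and 16.8 FPKM in muscle, against 2.19, 1.496, 4.10 and 3.59 in myoblasts (2.39). Every muscle value was above every myoblast value for Hist1h1c, Hist1h2bc, Hist1h4h and the summed Hist2h2aa1 and Hist2h2aa2 entries. Hist2h2bb overlapped, with 13.3 FPKM in LMNA_KO muscle and 14.5 in LMNA_KO myoblasts. So did the higher members Hist1h3c (5.10 and 9.06) and Hist1h4i (11.2 and 20.5). The share of all genes without overlap between tissues was not counted.

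**Figure D5:**
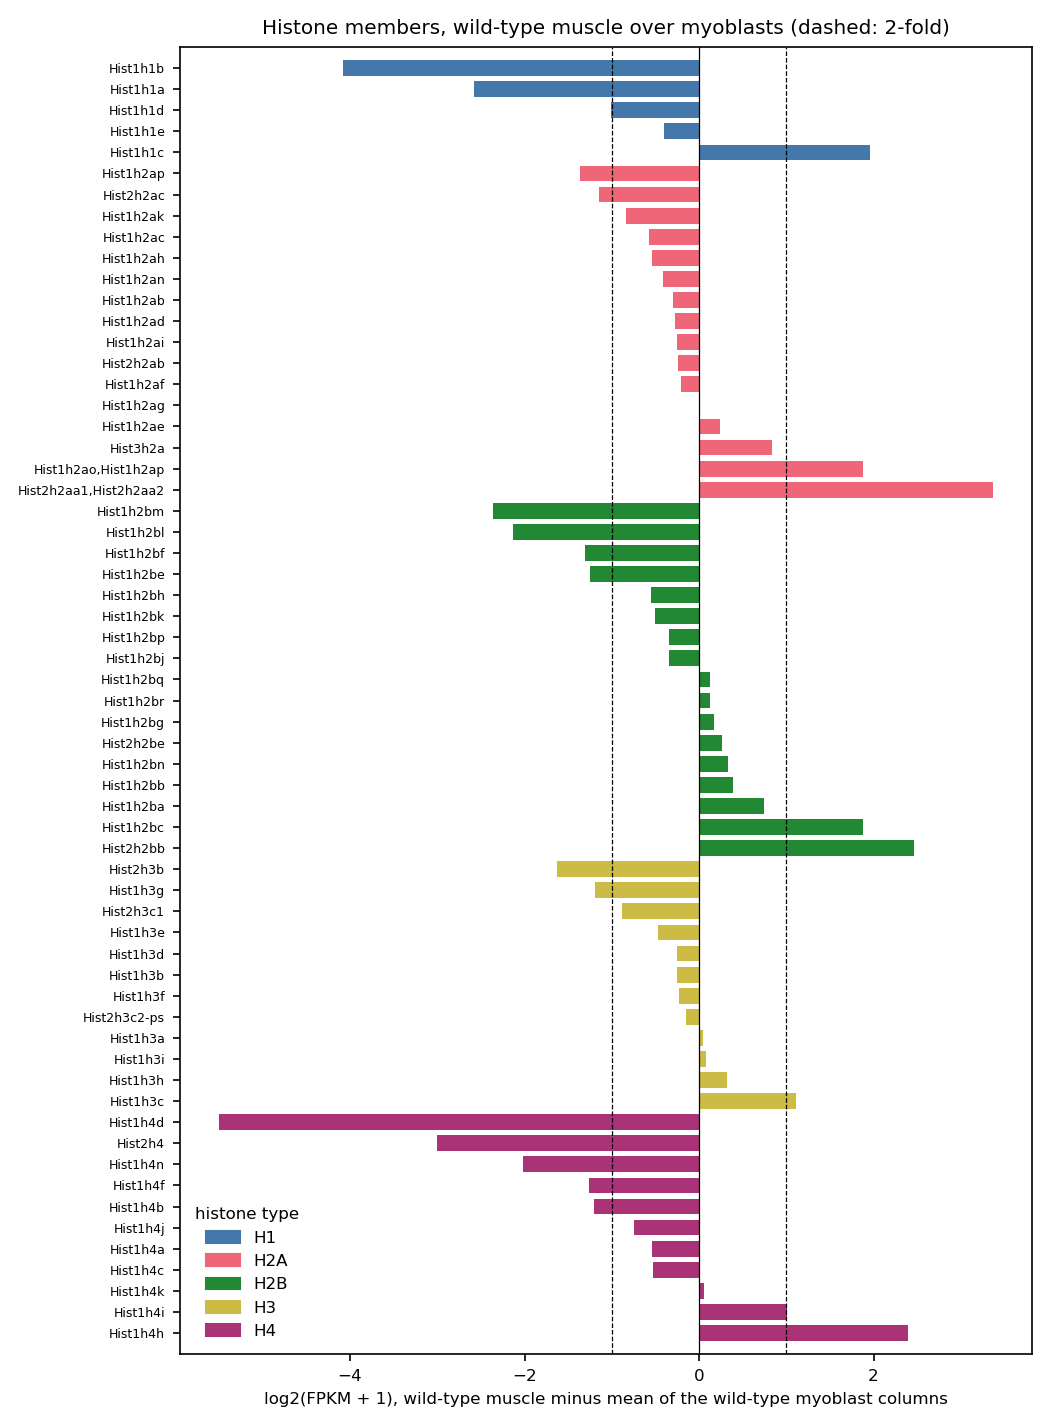
Difference of log2(FPKM + 1), wild-type muscle minus the mean of the 2 wild-type myoblast columns, as a bar for each of the 61 histone members compared, sorted within type, with dashed lines at 2-fold. Hist1h4d has the lowest value at -5.51 and the Hist2h2aa1,Hist2h2aa2 entry the highest at 3.37, which was 2.0 when summed with the Hist2h2aa2 entry, below Hist2h2bb at 2.46; the member median of -0.30 turned to 0.28 when centred on all genes and to 0.20 after quantile normalization.

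Members with a polyadenylation signal at the annotated end had a median log2 difference of 0.13 between muscle and myoblasts (14 members, 3 higher and 2 lower), and those without one had -0.41 (44 members, 3 higher and 14 lower). The group without a signal includes annotated transcripts with no stem-loop, such as Hist1h2bl (381 bases). It also includes transcripts that run on past the stem-loop, such as Hist1h4d (by 770 bases). The 2 groups therefore do not separate polyadenylated from stem-loop mRNAs, and the tissues also differed in kit. The difference is a description across genes and was not tested. Hist1h1c and Hist1h4h have the signal, but so does Hist2h4, which fell.

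Genes of the cell cycle were mostly lower in muscle. Calls were made for 34 of 40 replication genes, with a median of -2.10, for 20 of 20 mitotic genes, with a median of -3.39, and for 15 of 20 chaperone genes, all lower. Pcna had 39.5 FPKM in wild-type muscle, against 103.6 and 107.5 in the wild-type myoblasts. Of 15 processing genes 8 were called, all lower, and Slbp had 10.97 FPKM in wild-type muscle against 21.4 and 22.4. Replication-independent histones were mixed, with 1 of 12 higher and 6 lower. H3f3a had 245 FPKM in wild-type muscle against 159 and 189 in myoblasts, and H3f3b had 99.6 against 101 and 118. H2afz, encoding the variant H2A.Z, fell to 115 FPKM in muscle, against 219 and 255. H1f0, the linker histone of non-dividing cells, had 52.0 against 32.1 and 39.1. H2afx fell to 4.21 FPKM, against 52.5 and 110.

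In the Hist2 cluster, Hist2h2ab had 2.13 to 7.38 FPKM over the 7 columns, Hist2h2ac 9.67 to 33.2, Hist2h2be 1.97 to 4.33 and Hist2h3c1 2.23 to 12.7. In the Hist3 cluster, Hist3h2a had 5.51, 5.57 and 6.84 FPKM in muscle and 2.65 to 4.29 in myoblasts. Hist3h2ba had 1.42 to 4.003 FPKM in muscle and 0.0140 to 0.157 in myoblasts. Hist3h2bb-ps had 1.22 to 1.39 FPKM in muscle and 0.199 or less in myoblasts. Hist4h4 had 0.981 FPKM or less in every column. Among the testis-specific members, Hist1h1t (0.460 or less) and Hist1h2aa (1.15 or less) were near 0, with germ cell markers summing to 0.192 to 2.84 FPKM. Hist1h2ba, the testis H2B, had 6.50 to 9.40 FPKM in muscle and 3.72 to 7.01 in myoblasts, with 38.2% of its stretches of 50 bases shared with other genes. The protamine genes Prm1 and Prm2 were listed at 0 in all 7 columns.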

How the data were processed

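RNA of 12 mouse samples in 7 groups was sequenced. The authors deposited 1 table with 22552 genes and 1 column per group, in FPKM per the file headers, so 5 columns stand for 2 samples each and 2 for a single wild-type myoblast sample. No source used here states how samples were combined, nor the aligner, counting tool or gene annotation. The build was mm9 per the submitters' processing notes.

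Differences were taken on log2(FPKM + 1), for genes that averaged at least 1 FPKM in the compared columns and were not listed at 0 in any of them, and called at 2-fold. Muscle was compared with the mean of the 2 wild-type myoblast columns on the log2 scale. No test was made, since no column holds a single replicate of a group with more than 1. The members and gene lists were chosen with earlier results of these data known. Genes named by rule were members at 2-fold in a knockout comparison, the highest member of each type by mean FPKM, all Hist2, Hist3 and Hist4 members, the testis members Hist1h1t, Hist1h2aa and Hist1h2ba, up to 3 genes per list and comparison at 2-fold, and Slbp, H3f3a, H3f3b, H2afz, H1f0, Pcna and Mki67. The lists covered histone mRNA processing, replication-independent histones, chaperones, DNA replication, mitosis, and macrophage, lymphocyte, erythroid and male germ cell markers. Of 8 erythroid markers 6 were in the table, and they summed to 16.3, 20.7 and 16.3 FPKM in LBR_KO, LMNA_KO and wild-type muscle and 0.312 to 0.636 FPKM in myoblasts.

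The read depth is unknown. From the spacing of low values, 1 fragment on a transcript of 1000 bases was estimated to be worth 0.245 to 0.309 FPKM in muscle and 0.0617 to 0.0851 FPKM in myoblasts, so muscle values carry more counting error. This estimate rests on 38 to 111 genes per column.

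Sequences, lengths and shared stretches came from GENCODE M21 (GRCm38), in which 67 of 68 symbols had a transcript, and promoters from RefSeq (GRCm38.p6), matched for 61 members. These builds differ from mm9, so no position was carried over. Alternatives were other pseudocounts, filters, scalings and wild types. The calculation was tested on simulated data. Python 3.11.15 was used with pandas 2.3.3, numpy 2.4.6 and matplotlib 3.10.9.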

Additional observations from a re-analysis of the deposited data

Results flagged for a closer look

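For 9 combinations of a member and a knockout, the difference of knockout over wild type had the opposite sign in muscle and myoblasts, with the gap between the tissues at least 2-fold. They were 3 of 61 members (4.92%) for the Lbr knockout and 6 of 62 (9.68%) for the Lmna knockout, beside 1.52% and 2.52% of all genes compared in both tissues. Each side rests on 1 column per group, and the difference between tissues was not tested. The muscle side rests on few fragments for low members, since 1 FPKM on a transcript of 500 bases was estimated at 1.62 to 2.04 fragments. The gaps below are muscle minus myoblast on the log2 scale.

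For the Lbr knockout they were -1.51 for Hist1h4d (-0.86 in muscle, 0.65 in myoblasts), -1.37 for Hist1h4i (-0.69 and 0.68) and -1.15 for Hist1h3c (-0.43 and 0.72). For the Lmna knockout they were -2.64 for Hist2h2bb (-0.63 in muscle, 2.02 in myoblasts), -1.67 for Hist2h3c2-ps (-1.08 and 0.58), -1.54 for Hist1h4m,Hist1h4n (-0.42 and 1.12), -1.25 for Hist1h3c (-1.18 and 0.07), -1.16 for Hist1h4i (-0.94 and 0.21) and -1.15 for Hist2h3b (-0.42 and 0.72). With its partner entry Hist1h4n added, the gap of Hist1h4m,Hist1h4n was -0.79 (-0.48 in muscle, 0.31 in myoblasts), short of 2-fold. Hist1h3c and Hist1h4i appear for both knockouts, and both knockouts were set against the same wild-type muscle column. Hist1h3c had 9.21 FPKM in LBR_KO muscle and 5.10 in LMNA_KO muscle, against 12.8 in wild-type muscle.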

How the results depend on the processing

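No paired analysis was possible because the table has 1 column per group, and for the same reason leaving out single replicates and a fit with a replicate block were not run. The few calls of members in knockouts moved with the settings. In LBR_KO over wild-type myoblasts the 1 call became 2 with 0.1 added to FPKM, and 0 with 5 added, with a filter at 5 FPKM or with entries that share a symbol summed. In LMNA_KO over wild-type myoblasts the 2 calls became 1 with 5 added, with the filter at 5 FPKM, after quantile normalization or with entries summed. In LBR_KO muscle 1 call became 3 with 0.1 added, 2 after quantile normalization and 0 with the filter at 5 FPKM or entries summed. In LMNA_KO muscle 3 calls became 0 with 5 added, 1 with the filter and 5 after quantile normalization. The choice of wild type changed most, as the litter difference then enters the knockout comparison. When the other litter's wild type was used instead, LBR_KO myoblasts had 3 calls and a median of -0.69, Hist1h2ao,Hist1h2ap turned to -1.10, and LMNA_KO myoblasts had 41 calls and a median of 1.07. The all-gene medians were then -0.01 for LBR_KO and 0.10 for LMNA_KO myoblasts. Against the mean of both wild types, the median of LBR_KO myoblasts turned to -0.20 with 10 of 62 above 0, and LMNA_KO myoblasts had 4 calls and a median of 0.63. Between litters, the 19 calls in wild types became 29 with 0.1 added and 4 with 5 added, and the 12 calls in knockouts became 27 and 5, and 7 after quantile normalization or with columns scaled to the same summed FPKM. The share of all genes called was not counted under these other settings, so the member counts cannot be set against it. Among counts, medians and sums over all members, 129 values stayed within their limits and 26 moved. The limit was a change by a factor of 1.5, whatever the direction, so a value could stay while its sign turned. This held for the median of LBR_KO myoblasts, 0.24 against their own wild type and -0.20 against the mean of both. It also held for the median of muscle over myoblasts, -0.30 as deposited and 0.28 when centred on all genes. Among single genes and sums by type or cluster, 219 stayed, 13 moved, 10 dropped below the call and 1 reversed. The H1 sum of LMNA_KO over wild-type muscle, at a ratio of 1.22, was 0.690 without Hist1h1c. Summing entries, that scaling and comparing the knockouts with each other were chosen after seeing the data. The absence of replicate values limits every statement on single genes.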
